A study of Caenorhabditis elegans with 57 samples.

Results

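A group of 10 *C. elegans* genes that act in meiotic chromosome pairing and synapsis were followed across the RNA and chromatin libraries of a study of sperm-inherited H3K27me3. They are *him-8* (T07G12.12), *zim-1* (T07G12.6), *zim-2* (T07G12.10), *zim-3* (T07G12.11), *htp-3* (F57C9.5), *him-3* (ZK381.1), *syp-1* (F26D2.2), *syp-2* (C24G6.1), *him-5* (D1086.4) and *spo-11* (T05E11.4). They were chosen by function, as a list of names. All 10 were found among the 45461 genes of the RNA table and the 45624 genes of the chromatin table. By the RefSeq gene table of assembly WBcel235, 6 lie on chromosome IV (*him-8*, *zim-1*, *zim-2*, *zim-3*, *him-3*, *spo-11*), 3 on V (*syp-1*, *syp-2*, *him-5*) and *htp-3* on I.

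In meiotic prophase, homologous chromosomes find each other, align along a protein axis and are joined by the synaptonemal complex, within which programmed DNA breaks are repaired as crossovers. In *C. elegans*, HIM-8 and the ZIM proteins are related zinc-finger proteins that bind the pairing centre at one end of each chromosome: HIM-8 that of the X, ZIM-1 those of II and III, ZIM-2 that of V and ZIM-3 those of I and IV. HTP-3 and HIM-3 are HORMA-domain proteins of the axis, SYP-1 and SYP-2 build the central region of the synaptonemal complex, SPO-11 cuts the DNA, and HIM-5 promotes breaks and crossovers on the X. Hermaphrodites carry a pair of X chromosomes and males a single X with no partner.

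The study asked whether the absence of H3K27me3 from the sperm genome affects descendants. Hawaiian CB4856 mothers with *fem-2(b245ts)*, made female by raising them at 25 °C, were mated with fathers that were homozygous for a *mes-3* mutation (offspring called M+P-) or carried it over the balancer *hT2-GFP* (M+P+); MES-3 is a subunit of PRC2, which makes the mark. In the first cross the fathers carried *mes-3(bn35)* and *him-8(e1489)* in an N2 background, and the offspring of both histories were heterozygous for *mes-3(bn35)*, *fem-2(b245ts)* and *him-8(e1489)*. RNA came from their hermaphrodite germlines (2 libraries a group), male germlines (4 a group) and newly hatched L1 larvae (3 a group, about 100 larvae each). In the second cross the fathers carried *mes-3(bn199)* linked to a *glh-1* allele tagged with GFP and 3xflag (*sams24*), together with *fem-2(b245ts)*, and not *him-8(e1489)*. Their F1 hermaphrodite germlines (3 libraries a group), homozygous for *fem-2(b245ts)*, and those of F2 offspring of selfed M+P- worms, called GM+GP- (3 libraries), were also sequenced. Father germlines were *him-8(e1489)* males, used by the study in place of wild type, and *mes-3(bn35); him-8(e1489)* males from *mes-3(bn35)/hT2-GFP* mothers (3 libraries each). One of the genes described, *him-8*, was therefore itself homozygous mutant in both groups of fathers, heterozygous in the first cross and not mutant in the second. Germline samples were the distal parts of 30 to 50 pooled gonad arms, cut at the bend, from day 1 adults, so each library is a pool of worms. The L1 libraries came from whole larvae of unsorted sex.

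Total counts ran from 5706650 to 19191934 in the 33 RNA libraries, from 2797547 to 25714782 in the 12 H3K27me3 libraries and from 1701400 to 41980395 in the 12 H3K36me3 libraries. Values are CPM, each gene's count scaled to its library's total, and differences are log2 differences fitted to the counts with edgeR's quasi-likelihood test after scaling by trimmed means (TMM). A gene is called when its Benjamini-Hochberg adjusted p, taken over all genes tested, is under 0.05. The p-values measure the spread between the pooled collections of a group. Summed germline markers (8 genes) were 8645 to 11375 CPM in hermaphrodite germlines, 4278 to 5820 in male germlines and 95.4 to 133 in larvae. Summed sperm markers (7 genes) were 44.04 to 74.2 CPM in hermaphrodite and 2082 to 4336 in male germlines, and summed oocyte markers (6 genes) 3641 to 11453 and 622 to 2123. A pair of RNA libraries stood apart. F1 M+P- replicate 3 had 0 counts at 509 of 707 well-covered genes of chromosome V and at 116 of 116 of the X, where no other F1 library had a 0. In male M+P+ replicate 3 the summed muscle markers (8 genes) reached 2466 CPM, against 19.4 in the lowest library of that group. Results that use either library are given with and without it. In pooled tissue, fewer cells of a type and less RNA per cell cannot be told apart.

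All 10 genes were germline RNAs of middle abundance. In first-cross M+P+ hermaphrodite germlines *him-3* and *htp-3* were the most abundant in CPM, and *him-5* the least. The authors' deposited RPKM values, which are per length and have no error here, put *him-3* at 140, *htp-3* at 77.9, *syp-2* at 71.5, *him-8* at 59.0, *zim-3* at 53.0, *zim-1* at 52.6, *syp-1* at 52.4, *zim-2* at 48.5, *spo-11* at 44.1 and *him-5* at 28.0 in that group. In M+P+ males the authors' deposited RPKM was again highest for *him-3* (197), but *syp-1* (91.9) came next, before *htp-3* (80.2) and *syp-2* (73.5). At the low end, *him-8* (26.7) stood just above *him-5* (19.5). The 3 ZIM genes lay close together in both sexes on that scale, between 33.7 and 53.0.

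**Figure D1:**
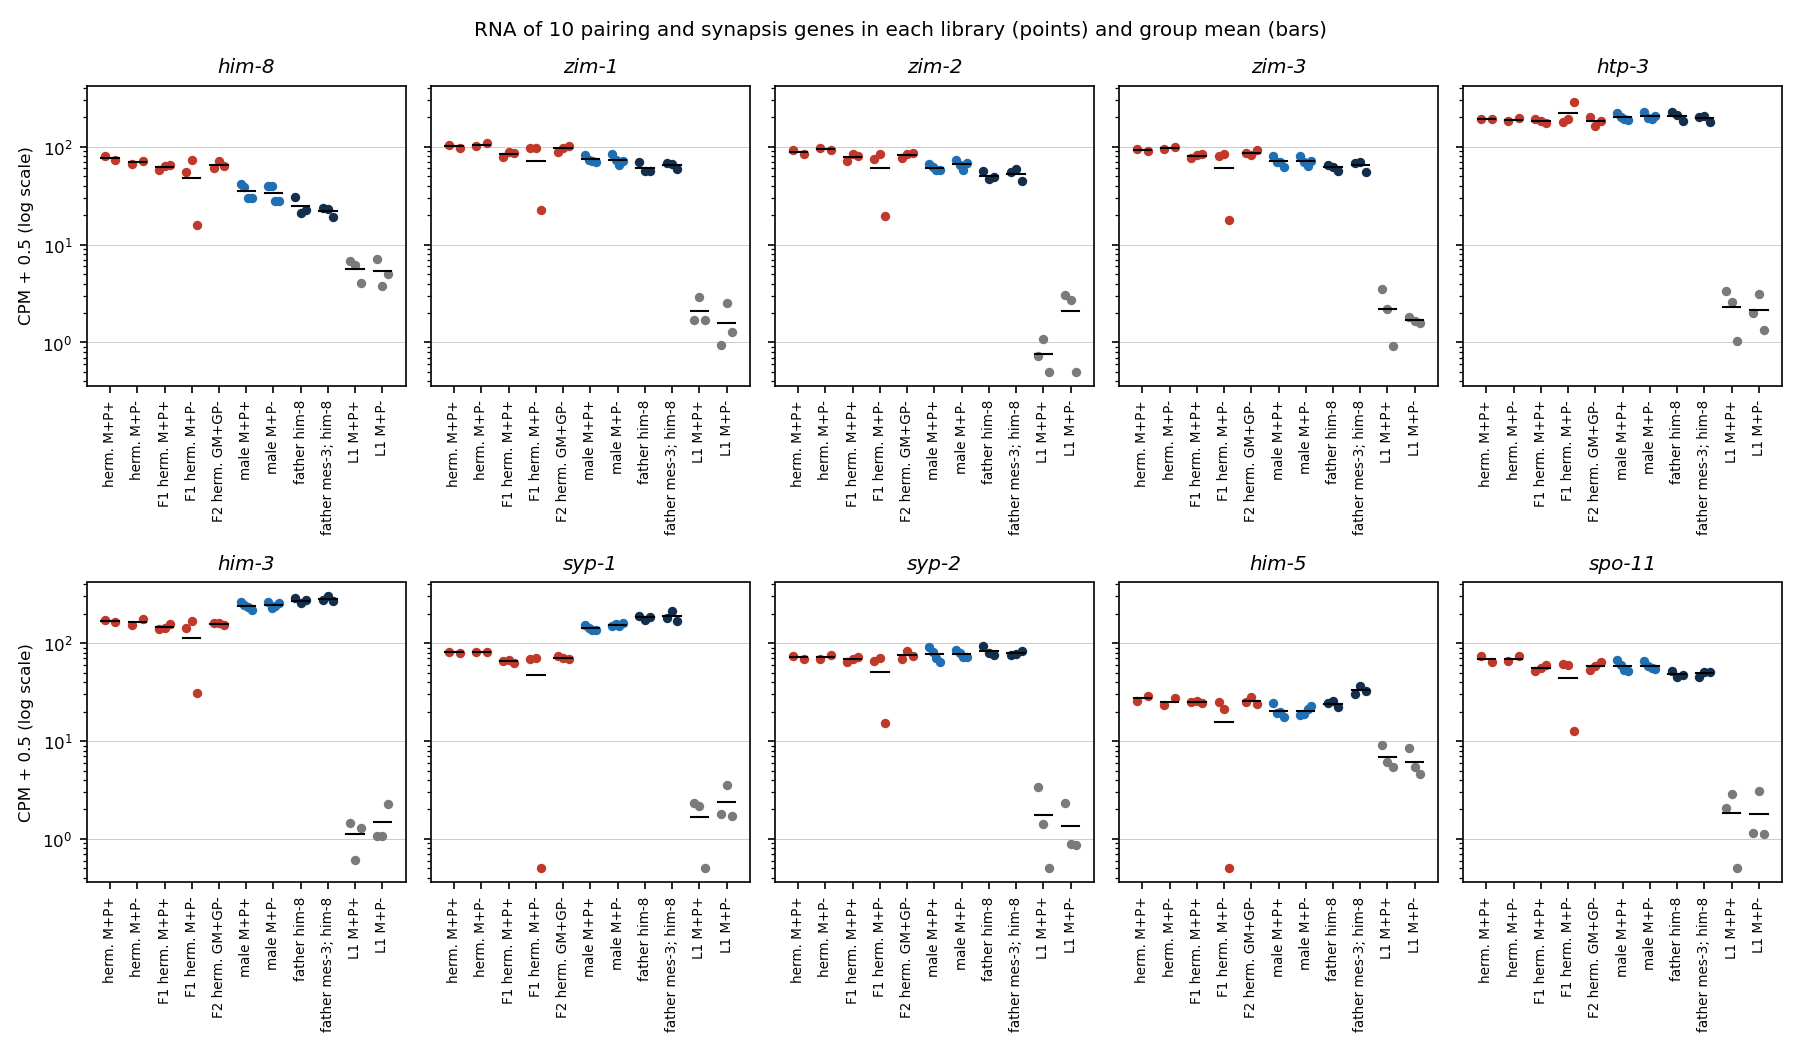
RNA level of each of the 10 genes in every library, as CPM + 0.5 on a log axis, with a bar at each group mean (red, hermaphrodite germlines; light blue, male offspring; dark blue, fathers; grey, L1 larvae). Larvae lie below every germline group mean, with the smallest gap at *him-5*. *syp-1* and *him-3* are higher and *him-8* lower in males. The low points in the F1 M+P- group are replicate 3, in which *syp-1* and *him-5* are at 0.

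The levels of several of these genes differed between the sexes. The changes with the lowest adjusted p in M+P+ worms were in *syp-1* and *him-3*, which were higher in males, and in *him-8*, which was lower.

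For *syp-1*, the M+P+ hermaphrodite libraries had 80.6 and 79.4 CPM and the M+P+ male libraries 150.9, 142.0, 136.7 and 137.2. In M+P- worms the hermaphrodites had 80.0 and 81.5 and the males 150.5, 156.9, 149.1 and 158.8. Every male library was well above every hermaphrodite library, and the libraries of each sex lay close together. The log2 difference, male minus hermaphrodite, was 1.05 ± 0.07 (SE, adjusted p = 0.000135) in M+P+ and 1.17 ± 0.08 (adjusted p = 0.000109) in M+P-. The gene shares 991 bases with the protein-coding gene F13A7.14 in the RefSeq table, and counting by strand is not stated, so reads in the shared stretch cannot be told apart. F13A7.14 itself was at 57.9 ± 3.94 CPM (SD, n = 4) in M+P+ males and 75.0 ± 1.82 (n = 2) in M+P+ hermaphrodites, with the male mean the lower.

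*him-3*, the axis gene, had 172.0 and 164.7 CPM in M+P+ hermaphrodites and 265.1, 244.9, 231.5 and 217.4 in M+P+ males. In M+P- worms the values were 152.6 and 174.1 in hermaphrodites and 260.4, 229.7, 236.4 and 253.8 in males. The sexes did not overlap in either history, and the log2 differences were 0.73 ± 0.08 (adjusted p = 0.000647) and 0.83 ± 0.09 (adjusted p = 0.000379).

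For *him-8*, which acts on the X, the M+P+ hermaphrodites had 79.6 and 72.4 CPM and the M+P+ males 41.0, 38.0, 29.5 and 29.1. The M+P- hermaphrodites had 65.3 and 71.5 and the males 38.8, 39.1, 27.1 and 27.5. The highest male library was below the lowest hermaphrodite library in both histories, and within each male group replicates 1 and 2 were above replicates 3 and 4. Summed oocyte markers were 2123, 1424, 1065 and 815 CPM in M+P+ male replicates 1 to 4 and 1680, 1169, 859 and 805 in the M+P- ones, and summed sperm markers 2264, 3053, 3288 and 4336, then 2082, 2934, 3479 and 3728. Oocyte markers were thus also higher, and sperm markers lower, in replicates 1 and 2 than in 3 and 4, and their part in the *him-8* values was not tested. The fitted log2 differences were -0.92 ± 0.17 (adjusted p = 0.00471) and -0.81 ± 0.17 (adjusted p = 0.00682).

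The 3 genes next to *him-8* on chromosome IV had smaller differences of the same sign. *zim-1*, *zim-2*, *zim-3* and *him-8* follow one another with no other protein-coding gene between them in the RefSeq table. In M+P+ worms *zim-2* was at 87.6 ± 5.37 CPM (SD, n = 2) in hermaphrodites and 60.6 ± 4.56 (n = 4) in males, and fell by 0.31 on the log2 scale (SE 0.10, adjusted p = 0.0396). Its M+P- difference was -0.28 ± 0.10 (adjusted p = 0.0532). The M+P+ libraries of *zim-1* had 100 ± 4.77 CPM in hermaphrodites and 73.8 ± 5.52 in males, a log2 difference of -0.22 ± 0.09 (adjusted p = 0.0823); in M+P- it was -0.29 ± 0.10 (adjusted p = 0.0427). The differences of *zim-3* did not pass in either history (-0.17 ± 0.11 and -0.21 ± 0.09). The flanking gene on the far side of *zim-1*, *svct-1*, was at 0.154 ± 0.098 CPM (SD, n = 2) in M+P+ hermaphrodites and 1.31 ± 0.763 (n = 4) in M+P+ males, a rise of 3.21 ± 0.95 (adjusted p = 0.0306), but at 1.39 ± 0.210 and 1.37 ± 0.360 in M+P- worms. That beyond *him-8*, *efn-2*, had group means of 0.228 to 0.883 CPM. The *svct-1* mean in M+P+ hermaphrodites lay below a floor of 3 counts, which is 0.254 and 0.223 CPM in those libraries, so its rise rests on few reads. A pair of pseudogenes, T07G12.8 and T07G12.14, lies within *zim-1*; their germline medians were 10.5 and 0.285 CPM in hermaphrodites and 9.86 and 0.448 in males.

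Of the others, *htp-3* passed the test in both histories, at 0.29 ± 0.08 (adjusted p = 0.0238) in M+P+ and 0.35 ± 0.07 (adjusted p = 0.00579) in M+P-. *syp-2* passed in M+P- (0.33 ± 0.09, adjusted p = 0.0159) and not in M+P+ (0.32 ± 0.15, adjusted p = 0.118). Of the break genes, *spo-11* differed least of all members, by -0.03 ± 0.13 and -0.01 ± 0.09, with intervals of -0.35 to 0.29 and -0.23 to 0.22. *him-5* differed by -0.23 ± 0.20 and -0.07 ± 0.19. *spo-11* shares 23 bases with *enpl-1*, an abundant gene at 575 CPM in the median hermaphrodite library.

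In all, 3 of the 10 genes were higher and 2 lower in M+P+ males, and 4 higher and 2 lower in M+P- males. Among all genes tested, 30.6% were called higher and 22.3% lower in M+P+, and 33.2% and 27.3% in M+P-, or 52.9% and 60.5% in either direction, so the count of members called is close to the background and the results are those of the single genes. Without male M+P+ replicate 3, *syp-1* (1.08), *him-3* and *htp-3* were still called higher and *him-8* (-0.84) lower, while *zim-2* was not called (adjusted p = 0.0769); 32.5% of all genes were then higher and 30% lower. Leaving out each library in turn gave 1 to 7 calls in M+P+ and 3 to 8 in M+P-. The 1 call came without M+P+ hermaphrodite replicate 1, where *syp-1* alone passed, *him-8* had an adjusted p of 0.0904 and *him-3* one of 0.102, and 24.1% of all genes were called. There were 3 calls without M+P+ hermaphrodite replicate 2 (28.5% of genes) or M+P+ male replicate 2 (45.7%), and 3 in M+P- without hermaphrodite replicate 1 (42%) or 2 (43.6%). Where 1 hermaphrodite library is left, it is assumed to vary like the males.

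Scaling matters for the small differences. TMM moved the median log2 difference of all genes from -0.14 with library totals alone to 0.08 in M+P+, and from -0.11 to 0.13 in M+P-. With totals alone, 2638 genes were called higher and 2923 lower in M+P+, against 3131 and 2286 with TMM; in M+P- the numbers were 2873 and 3655, against 3595 and 2957. On totals *syp-1* (0.83 and 0.93), *him-3* (0.51 and 0.59) and *him-8* (-1.14 and -1.04) were called in the same direction in both histories. *htp-3* (0.07 and 0.12) and *syp-2* (0.10 and 0.09) were then not called, and *zim-1*, *zim-2* and *zim-3* were all called lower in both histories (-0.39 to -0.53).

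**Figure D2:**
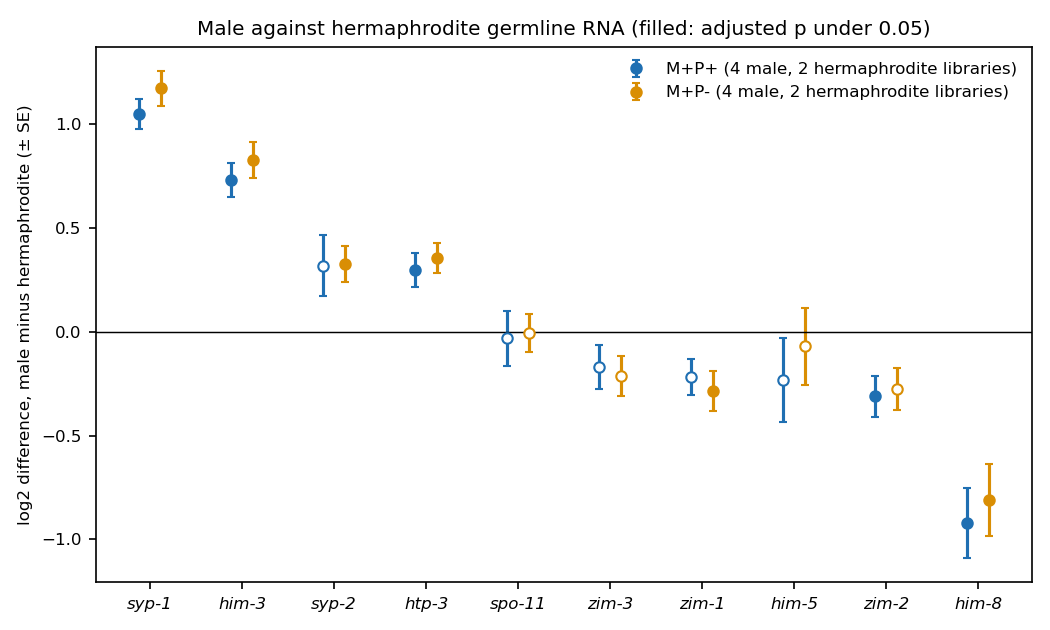
Fitted log2 difference of male minus hermaphrodite germline RNA for each gene, with its SE, in M+P+ (blue) and M+P- (orange) worms; filled points have an adjusted p under 0.05. *syp-1* is the highest point at 1.05 and 1.17, *him-8* the lowest at -0.92 and -0.81, and *spo-11* lies at 0.

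The wider machinery was read from lists of 70 other meiosis genes, all of which were tested. In M+P+ worms 21 were higher and 12 lower in males, where 30.6% of all genes were higher and 22.3% lower. Their median log2 difference was -0.01, against 0.08 over all genes. In M+P- 21 were higher and 14 lower, where 33.2% and 27.3% of all genes were. The counts over the 70 thus lie near or below the shares over all genes. Of 7 other synaptonemal complex genes, 6 were higher in M+P+ and 5 in M+P-, and 0 were lower. Of 9 other break-formation genes, 0 were higher, and 4 were lower in M+P+ and 6 in M+P-. Axis and cohesin genes were higher in 3 and lower in 1 of 11 (M+P+), pairing and movement genes higher in 4 and lower in 2 of 13, and repair and crossover genes higher in 8 and lower in 5 of 30. The counts of the axis, pairing and repair lists lie near or below the shares over all genes. Those of synaptonemal complex genes called higher and of break-formation genes called lower lie above them. Whether any list differs from all genes was not tested. Among those named by size, *dhc-1*, the dynein heavy chain that drives chromosome movement, rose in males by 1.21 ± 0.17 and 1.219 ± 0.13, and *pph-4.1*, a phosphatase needed for pairing, by 0.77 ± 0.13 and 0.82 ± 0.07. *plk-1*, a polo kinase, fell by 0.69 and 0.82, *xnd-1*, a chromatin factor that sets breaks on the X, by 0.80 and 0.91, *mlh-1*, a mismatch repair gene, by 1.08 and 0.90, and *wapl-1*, a cohesin release factor, by 0.78 and 0.88.

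*syp-1* and *him-3*, higher in male offspring than in hermaphrodites, were also abundant in fathers. In *him-8* fathers *syp-1* had 187.4, 173.2 and 186.0 CPM and *him-3* 287.3, 256.1 and 272.6, the first above every male offspring library and the second above most. Set against M+P+ male offspring, *syp-1* was 0.44 ± 0.08 higher (adjusted p = 0.0338), the 1 member called of 10 where 1.83% of all genes were called higher and 1.9% lower (3.72% together). That call was lost without male M+P+ replicate 3 (adjusted p = 0.0670, 2.27% of all genes called), and without any of 5 other libraries (male M+P+ replicates 2 and 4 and each *him-8* father replicate; adjusted p = 0.0548 to 0.221). *him-8* RNA, from the mutant allele alone in these fathers, was at 30.0, 20.7 and 21.9 CPM, against 29.1 to 41.0 in the heterozygous males. The log2 difference of -0.44 ± 0.19 did not pass (adjusted p = 0.23), nor did that of -0.52 ± 0.19 without male M+P+ replicate 3 (adjusted p = 0.189). Genotype, background and collection all differ between these groups and cannot be told apart.

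Larvae held little of this RNA. All 10 genes were higher in hermaphrodite germlines than in L1 larvae, in both histories; 28.9% of all genes were higher in M+P+ and 29% in M+P-, and the median gene was lower by 2.69 and 2.55. The size of the gap differed between genes. *him-3* went from 0.617 ± 0.452 CPM (SD, n = 3) in M+P+ larvae to 168 ± 5.13 (n = 2), a log2 difference of 7.87 ± 0.47, and *zim-2* had the largest M+P+ gap at 8.10 ± 0.57, with 4, 11 and 0 reads in the 3 larval libraries.

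The smallest gaps belonged to both genes that act on the X. *him-5* was at 8.52, 5.58 and 4.99 CPM in M+P+ larvae and 7.96, 4.94 and 4.12 in M+P- larvae, and its germline gap was 1.86 ± 0.33 (adjusted p = 0.00113) in M+P+ and 2.13 ± 0.33 (adjusted p = 0.000448) in M+P-. *him-8* had 6.32, 5.68 and 3.52 CPM in M+P+ larvae and 6.66, 3.27 and 4.54 in M+P- larvae, and gaps of 3.66 ± 0.27 and 3.82 ± 0.31. Each larval library had 77 to 151 reads of *him-5* and 51 to 112 of *him-8*, whereas the highest count of any other member was 53. *zim-2*, *syp-1*, *syp-2* and *spo-11* had 0 reads in M+P+ larval replicate 3, where the floor of 3 counts is 0.158 CPM. The authors' deposited RPKM gave the same order per length in M+P+ larvae, with *him-5* at 4.84 and *him-8* at 4.52 and the others between 0.146 and 1.29. Newly hatched larvae hold few germ cells, and which larval cells held these reads was not measured. Of the 70 other meiosis genes, 68 were higher and 1 lower in M+P+ germlines than in larvae, with a median of 3.57.

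A paternal history without H3K27me3 moved no member's RNA past the test in any of these comparisons. At an unadjusted p under 0.05 there were *him-5* in fathers and *zim-1* in the F2 against F1 M+P+. *zim-1* was also under it in the F1 without M+P- replicate 3. In hermaphrodite germlines the 10 log2 differences, M+P- minus M+P+, ran from -0.15 (*him-8*) to 0.09 (*zim-2*), with 0 called where 9.74% of 8409 genes were (5.11% higher, 4.63% lower). Their 95% intervals together spanned -0.47 to 0.26. In male germlines they ran from -0.09 to 0.09 within -0.45 to 0.33, with 0 called where 0.49% of all genes were. Both groups overlapped in all 10 genes there. Without male M+P+ replicate 3 the differences were -0.15 to 0.07 and 0 members were called, against 1.89% of genes.

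In the F1 of the second cross, F1 M+P- replicate 3 decided the values: with it the differences ran from -0.72 to 0.10, and the 9 below 0 were all of genes on IV or V. Without it they ran from -0.14 (*him-5*) to 0.18 (*zim-1*), within intervals of -0.46 to 0.35. The interval of *zim-1* alone was 0.01 to 0.35 (adjusted p = 0.293). Members called were 0 either way, as were all 7983 genes with the library (294 had an unadjusted p under 0.05, and DESeq2 called 132), while 3.16% of genes were called without it. The F2 GM+GP- germlines differed from F1 M+P+ by -0.03 to 0.16, within -0.25 to 0.30, and 0 members were called where 3.21% of 8296 genes were (2.54% higher, 0.663% lower); with the replicate number as a block, 634 genes were called in place of 266, and 0 members. Against F1 M+P- without replicate 3 the F2 differences were -0.04 to 0.15, with 0 members called and 0.0464% of genes (with that library 0% of genes, 54 at an unadjusted p under 0.05). The F2 also differ from the F1 in generation and in coming from selfing, so these cannot be told apart from history. In L1 larvae the differences ran from -0.74 to 2.40 within -4.01 to 6.25. Their SE ran from 0.41 to 1.74, so changes of several-fold were not detectable at the members with the widest intervals. In larvae 0.00684% of all genes were called and 0 members.

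Fathers are the generation in which PRC2 was itself mutant. Of the 10, 0 were called between *mes-3; him-8* and *him-8* fathers, where 8.33% of 8873 genes were (7.01% higher, 1.32% lower). *him-5* stood out in value, with 29.5, 36.1 and 31.9 CPM in the mutant fathers and 23.7, 25.3 and 21.6 in the *him-8* fathers. These did not overlap, and the log2 difference was 0.42 ± 0.14 with an interval of 0.08 to 0.75, but its adjusted p was 0.133. The other 9 lay between -0.23 (*him-8*) and 0.04 (*zim-1*). The targeted gene *mes-3* had 41.9, 35.2 and 20.4 CPM in the mutant fathers and 46.5, 40.5 and 38.7 in the others (-0.42 ± 0.23, adjusted p = 0.332). What *bn35* does to the transcript is not given in the labels, so this RNA level does not check them. In the comparisons of descendants *mes-3* differed by -0.06 to 0.25, with adjusted p from 0.551 to 1.

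By the authors' deposited table, none (0) of the 10 genes has an adjusted p under 0.05 in any of its 5 comparisons. The lowest are 0.172 for the fathers and 0.362 for the F1. Of the 70 other meiosis genes, 1 was called in these comparisons. It was *zyg-12*, which links the nuclear envelope to dynein and fell by 0.36 ± 0.09 in mutant fathers (adjusted p = 0.0472). Of all genes, 8.33% were called in fathers, 9.74% in hermaphrodites, 0.49% in males and 3.21% in the F2 against F1 M+P+. In larvae the share was 0.00684%, and in the F1 with every library 0%.

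**Figure D3:**
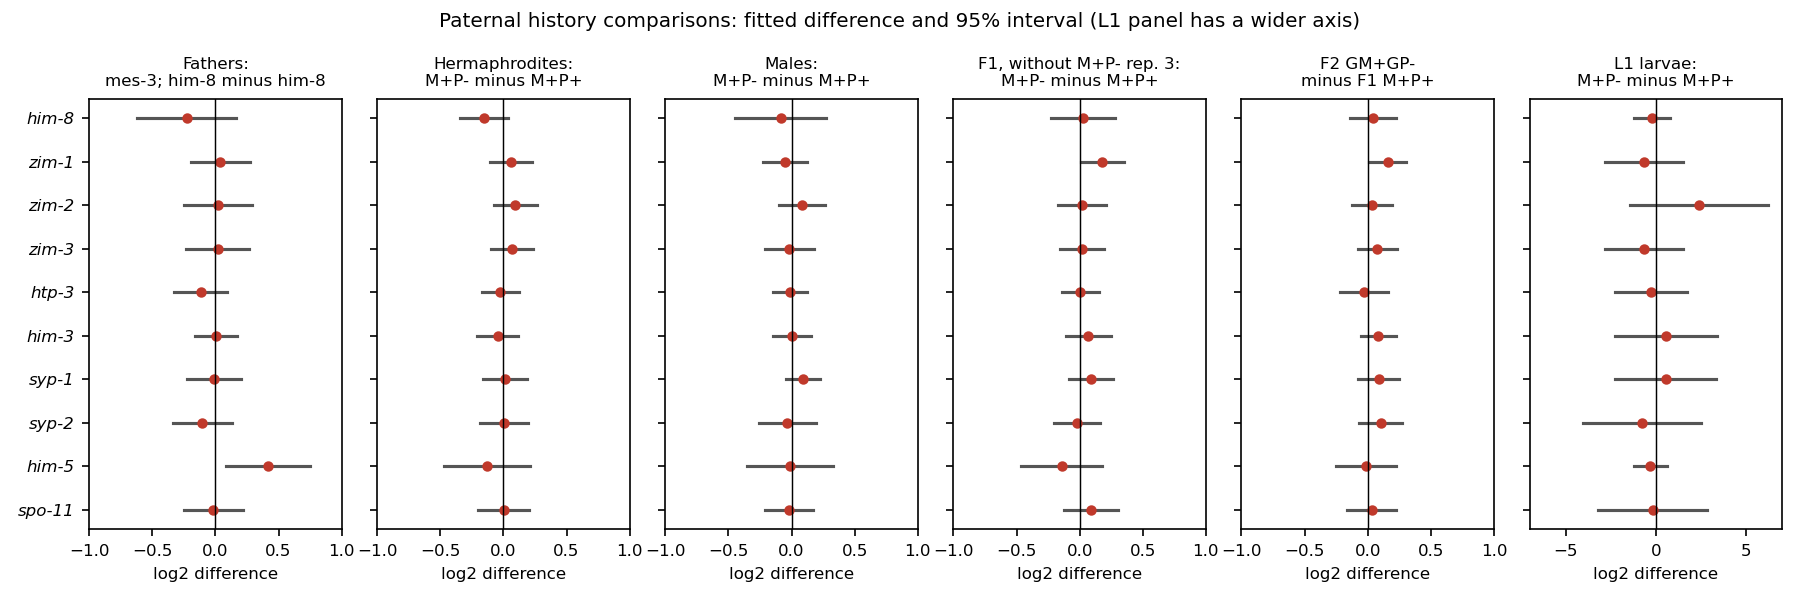
Fitted log2 difference (red point) and 95% interval (line) of each gene in 6 comparisons that involve paternal history. The F2 panel also differs in generation and mating. The larval axis is wider, and the F1 panel leaves out M+P- replicate 3. All germline points but *him-5* in fathers (0.42) and *him-8* in fathers (-0.23) lie within 0.18 of 0, and the larval intervals are far wider.

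Between crosses, M+P+ germlines of the second-cross F1 and of the first-cross hermaphrodites differed by -0.21 to 0.02 at the 10 genes, and 0 were called, against 12.5% of all genes (8.04% higher, 4.46% lower); with library totals in place of TMM 4 were called, and 17.1% of all genes (6.17% higher, 10.9% lower). *him-8*, heterozygous mutant in the first cross and not in the second, had 79.6 and 72.4 CPM in the first and 56.7, 63.2 and 65.1 in the second (-0.21 ± 0.08, adjusted p = 0.103). Cross, genotype and collection cannot be told apart here.

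Reads that covered a sequence difference between CB4856 and N2 were assigned by the authors to the oocyte or the sperm allele. The authors' deposited table lists 1 exonic difference each for *him-8*, *zim-1*, *htp-3* and *him-5* and 2 for *syp-1*; the other 5 genes have none listed. A share counts only reads over those positions, and exact binomial intervals cover counting error only. Mothers were CB4856 in both crosses, so parent of origin, strain and mapping to ce10 cannot be told apart in these shares. The germline libraries with allele reads include those of the F2, where the sperm label marks the genome of the grandfather.

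*syp-1* RNA came mostly from the sperm allele. In M+P+ hermaphrodites 34 of 46 and 41 of 54 allele reads were from the sperm allele, or 73.9% (interval 58.9 to 85.7) and 75.9% (62.4 to 86.5). In M+P+ males the shares were 81.8%, 77.5%, 69.9% and 80.95%, from 83 to 143 reads. In F1 M+P+ they were 69.6%, 91.7% and 76.6%. The sperm allele was ahead in all 20 germline libraries that have allele reads, with shares from 64.9% to 91.7% and a median of 76.4%, and in 19 of them the interval lay above 50%.

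Fitted over libraries, the log2 ratio of sperm to oocyte allele of *syp-1* was 1.57 ± 0.41 (adjusted p = 0.00146) in hermaphrodites, 1.82 ± 0.21 (adjusted p = 4.38e-11) in males and 1.99 ± 0.36 (adjusted p = 0.000561) in the F1, all M+P+. Among all genes tested, the sperm allele was called higher in 10.8%, 14.3% and 11.2%, and lower in 4.19%, 6.44% and 2.86%. The M+P- libraries, a separate set, gave 2.37 ± 0.32 (adjusted p = 0.0283) in hermaphrodites, where 6.84% of genes were called higher, and 1.85 ± 0.20 (adjusted p = 5.16e-09) in males, where 17.3% were. The F1 M+P- ratio of 1.38 ± 0.35 did not pass (adjusted p = 0.0964), from 2 libraries. In the F1 M+P+ test the *syp-1* call was lost without replicate 1 (2.29 ± 0.45, adjusted p = 0.147) or replicate 3 (2.23 ± 0.57, adjusted p = 0.0881). Of all genes, 6 of 2050 and 135 of 2076 were then called, against 289 of 2060 with every library. No change of the ratio with paternal history passed the test: the M+P- minus M+P+ differences were 0.80 ± 0.56 in hermaphrodites, 0.04 ± 0.30 in males and -0.61 ± 0.58 in the F1, 0 of them called, where 0.407%, 0.283% and 0.049% of genes were called. Without male M+P+ replicate 3 the *syp-1* ratio in M+P+ males was 2.01 ± 0.22 (adjusted p = 6.17e-07, 11.6% of genes called higher), and its difference with history in males was -0.15 ± 0.31 (0.123% of genes called). The overlapping gene F13A7.14 had 350 oocyte and 310 sperm reads over the same 20 libraries.

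The chromatin reads over *syp-1* showed no such lead. The sperm share in the 10 H3K36me3 libraries with allele reads had a median of 56.95% and ran from 22.2% to 80.2%, with the sperm allele ahead in 6. In H3K27me3 its median was 49.1%. Over all genes tested in RNA the median log2 ratio of sperm to oocyte allele was 0.01 in M+P+ hermaphrodites, 0.02 in M+P+ males and -0.02 in F1 M+P+.

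Of the pairing-centre genes, *him-8* and *zim-1* had enough allele reads for a share in each of the 20 libraries, and their medians lay near 50%. *him-8* had a median sperm share of 50.7% over the 20 germline libraries (38.8% to 60.0%), and *zim-1* one of 50.0% (38.0% to 66.7%). For *zim-1* the interval lay above 50% in 2 libraries, M+P- hermaphrodite replicate 2 (66.7%) and M+P- male replicate 1 (62.5%), and below it in M+P+ hermaphrodite replicate 1 (38.0%). Its log2 ratio of sperm to oocyte allele in M+P- hermaphrodites was 0.71 ± 0.26 (interval 0.01 to 1.40, adjusted p = 0.213), and -0.25 ± 0.30 in M+P+ hermaphrodites. The difference between these, 0.96 ± 0.43, did not pass (adjusted p = 0.676). In the first cross the sperm copy of *him-8* was the *e1489* allele, and its log2 ratio to the oocyte copy was -0.02 ± 0.31 in M+P+ hermaphrodites and -0.10 ± 0.33 in M+P+ males, with intervals of -0.62 to 0.58 and -0.76 to 0.57. Without male M+P+ replicate 3 the male ratio was -0.23 ± 0.36. In the second cross, without *e1489*, it was -0.14 ± 0.24.

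*him-5* gave a share that differed between crosses and libraries. M+P+ hermaphrodites of the first cross had 54.8% and 53.1% and M+P+ males 53.8%, 42.3%, 45.7% and 52.4%, whereas F1 M+P+ had 86.7%, 66.7% and 76.5% (log2 ratio 1.53 ± 0.42, adjusted p = 0.0189). The F1 call was lost without any 1 of its 3 libraries (adjusted p = 0.220 without replicate 1, 0.0679 without replicate 2, 0.204 without replicate 3), with 15 to 30 reads behind each share. Over all genes these fits gave 6, 164 and 135 calls, against 289 with every library. M+P- hermaphrodites had 83.9% and 72.7%, and their difference from M+P+, 1.60 ± 0.66, did not pass (adjusted p = 0.598). *htp-3* rested on few reads, 7 sperm and 36 oocyte over the 4 M+P+ male libraries. Its ratio there was -2.33 ± 0.74 (adjusted p = 0.0147), and it was not called without replicate 3 (0.0744) or replicate 4 (0.0706). In M+P- males it was -0.45 ± 0.61.

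**Figure D4:**
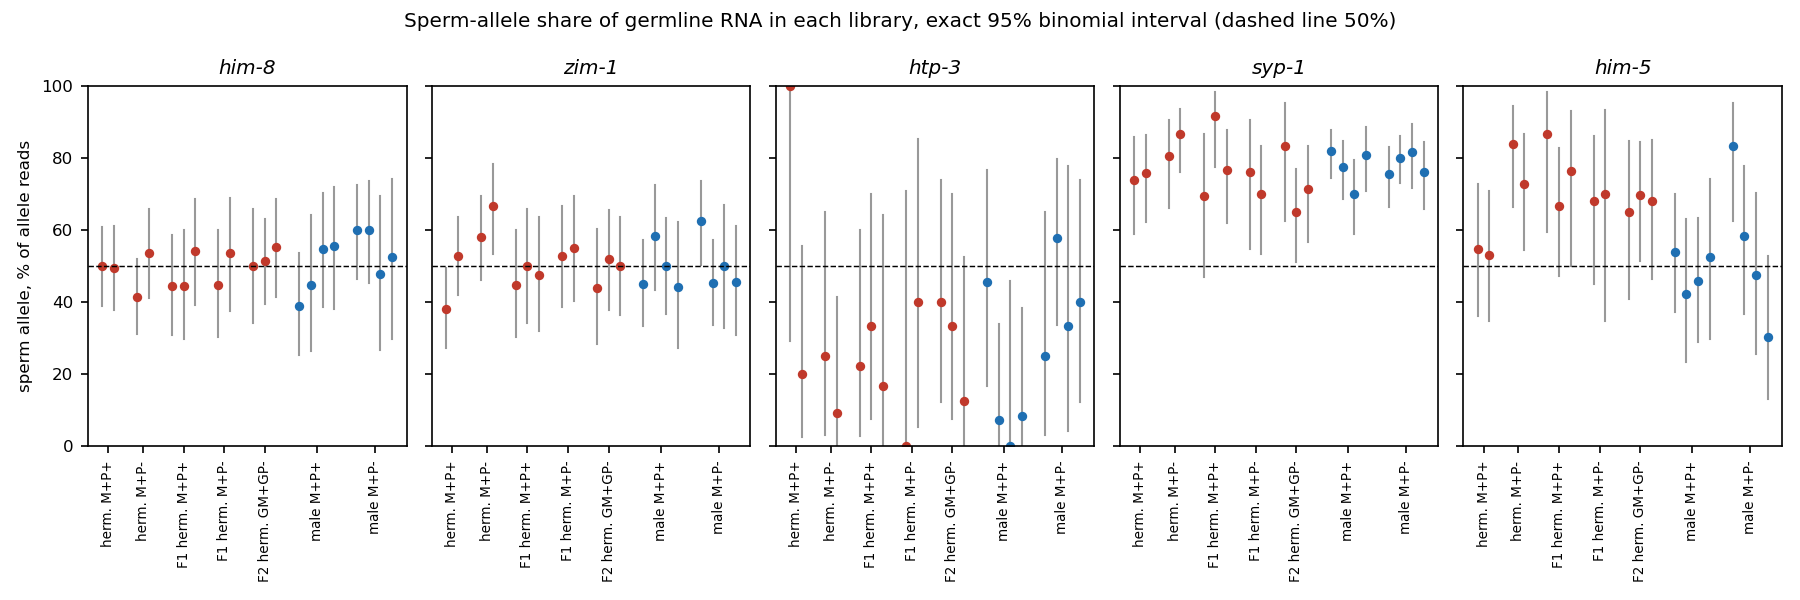
Share of allele reads from the sperm allele for the 5 genes with a sequence difference, 1 point per germline library with its exact 95% binomial interval; red, hermaphrodite germlines, and blue, male germlines; the dashed line is 50%. All 20 *syp-1* points lie above the line, those of *him-8* and *zim-1* lie around it, and *htp-3* has wide intervals.

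Chromatin was profiled by CUT&RUN, in which a nuclease cuts free the DNA that an antibody marks, with 2 libraries per group and mark. H3K36me3 is laid down over transcribed and germline-expressed genes, and H3K27me3 over repressed ones. Over the 10 genes H3K36me3 was high and H3K27me3 low in every group profiled. By the authors' deposited z-scores, averaged over the 12 libraries of a mark, H3K36me3 ran from 0.92 (*zim-1*) to 1.43 (*syp-2*), which placed the genes between the 79.5th and the 98.5th percentile of 20255 genes. H3K27me3 ran from -1.01 (*htp-3*) to 0.07 (*him-5*), between the 10.01th and the 34.4th percentile.

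The members differed in how little H3K27me3 they had. *htp-3* was the lowest, with z-scores of -1.36 and -1.25 in M+P+ and -1.49 and -1.12 in M+P- hermaphrodites, all below those of every other member in the same libraries. *him-5* was the only member with a mean above 0, and *syp-2* followed at -0.14. *zim-1* had the most CPM of both marks (45.0 to 110 of H3K27me3 and 162 to 292 of H3K36me3), but CPM are not per length and are not compared between genes.

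Counts of H3K36me3 exceeded those of H3K27me3, relative to other genes, at 10 of 10 members in M+P+ hermaphrodites (log2 difference 2.97 to 6.11), in F1 M+P+ (2.73 to 3.81) and in *him-8* males (2.61 to 4.50). Among all genes 20.2%, 27.9% and 25.9% were called that way, and 69, 69 and 68 of 69 other meiosis genes tested. The median of all genes depended on the scaling, at -0.40, -0.23 and -0.31 with TMM and -1.84, -1.50 and -1.55 with library totals. On totals *him-8*, *zim-1* and *him-5* were not called in hermaphrodites (adjusted p = 0.0640, 0.0517 and 0.140), while 10 were called in the other 2 groups. Without H3K27me3 M+P+ replicate 2, *zim-1* and *him-5* were not called in hermaphrodites (adjusted p = 0.0900 and 0.166), nor was *him-5* without replicate 1 (0.107).

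**Figure D5:**
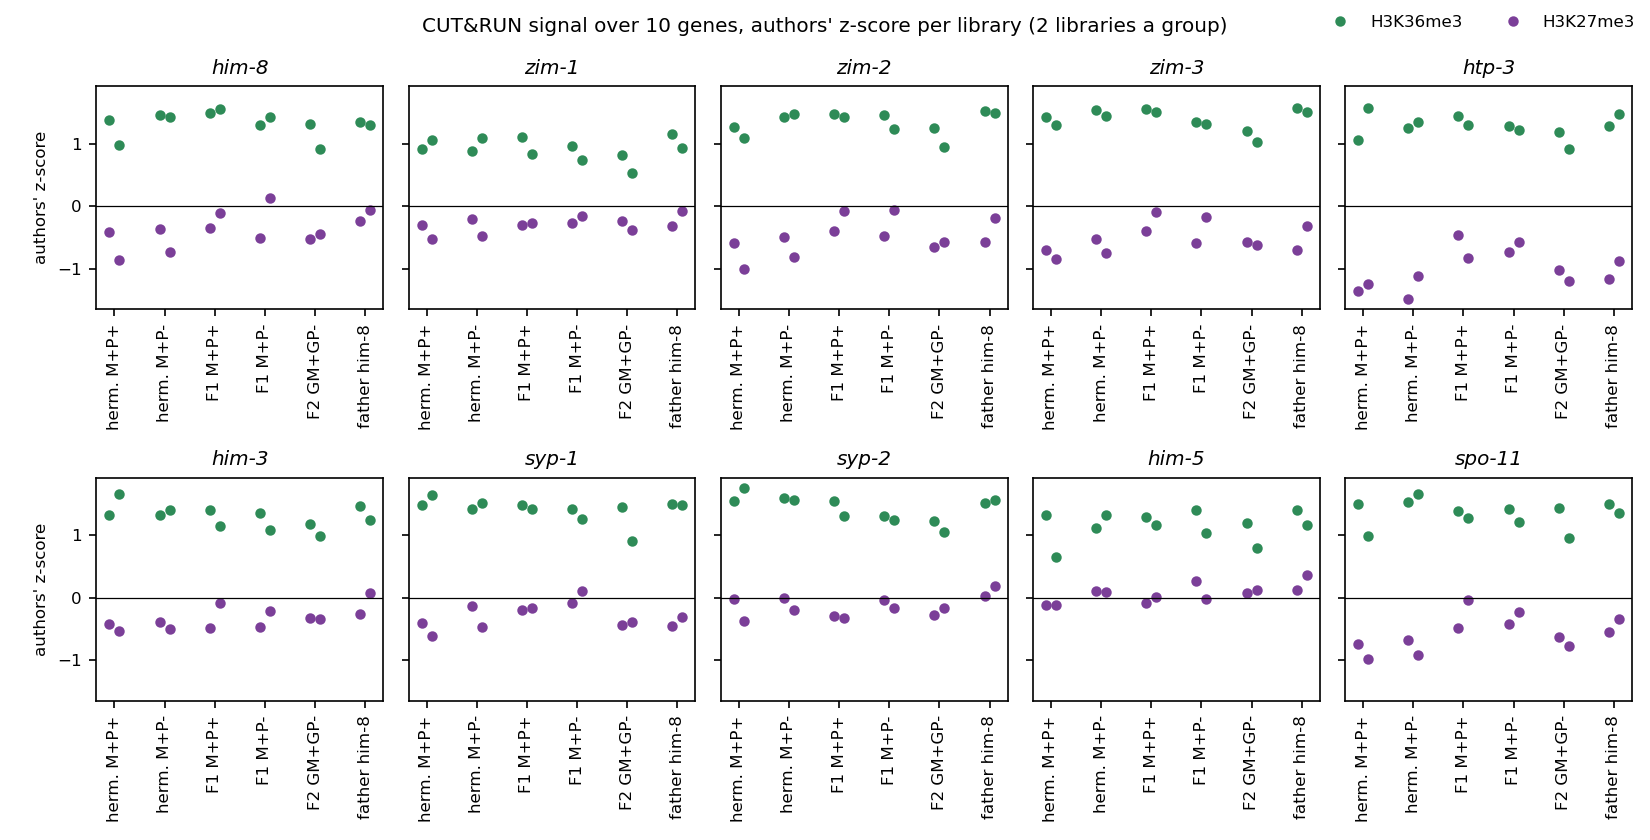
The authors' z-score of H3K36me3 (green) and H3K27me3 (purple) over each gene in each library, 2 points per group. H3K36me3 lies above 0.5 in every library for all 10 genes, and H3K27me3 lies lowest for *htp-3* and around 0 for *him-5* and *syp-2*.

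Neither mark changed past the test with paternal history. In hermaphrodite germlines the H3K27me3 differences, M+P- minus M+P+, were 0.07 to 0.37 and in the F1 -0.17 to 0.27, with 0 members called and 0% of all genes in both. For H3K36me3 they were -0.74 to 0.47 and -0.32 to 0.03, with 0 members called, against 0% and 0.121% of genes. edgeR and DESeq2 both gave 0 members in these 4 comparisons, and 0 members had an unadjusted p under 0.05; 299, 615, 132 and 1816 of all genes did, in the same order. The first-cross H3K36me3 result depends on 1 library: without M+P+ replicate 1, which leaves replicate 2, the deepest library at 41980395 counts, 5 members were called lower, where 45.2% of all genes were called (18.2% lower). At *him-5* that replicate had 25.2 CPM, against 63.3 in replicate 1.

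F2 germlines had less H3K27me3 over part of the set than F1 M+P+ germlines. History, generation, selfing against crossing and collection all differ between these groups and cannot be told apart, for either mark. *htp-3*, the axis gene, had 10.9 and 9.55 CPM in the F2 and 23.0 and 16.0 in F1 M+P+, while F1 M+P- had 16.7 and 21.0; *spo-11* had 10.5 and 9.42 against 14.2 and 21.1. Both F2 libraries were below both F1 M+P+ libraries at these genes. The log2 differences were -0.94 ± 0.23 (adjusted p = 0.0092) for *htp-3*, -0.82 ± 0.24 (0.0269) for *spo-11*, -0.71 ± 0.20 (0.0243) for *zim-2* and -0.68 ± 0.21 (0.0369) for *zim-3*. In all 4 of 10 members were lower and 0 higher, where 9.91% of all genes were lower and 0.65% higher; the members' median difference was -0.50 and that of all genes 0.03. Of 69 other meiosis genes 47 were lower and 0 higher, among them the cohesin-protecting gene *lab-1* (-1.58 ± 0.32) and the synaptonemal complex gene *syp-4* (-1.08 ± 0.22). Leaving out F1 M+P+ replicate 2 left 1 member called (*htp-3*) and 4.93% of all genes called lower, leaving out F2 replicate 1 left 2 and 7.16%, and without F1 M+P+ replicate 1 *htp-3* was not called (adjusted p = 0.174). At *him-5* and *syp-2*, the members with the most H3K27me3 by z-score, the differences were 0.11 ± 0.19 and -0.02 ± 0.24.

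H3K36me3 was also lower in the F2 in value, by 0.35 to 0.82 at all 10 genes, while the median gene was 0.24 higher with TMM and 0.08 higher with DESeq2 size factors. None of these passed (adjusted p from 0.331), and 0% of genes did, although 3688 had an unadjusted p under 0.05. The count depended on 1 library, since F2 replicate 2 was the lower of the pair at every gene and without replicate 1 all 10 members were called lower, where 22.1% of all genes were called (19.9% lower). With DESeq2 0 were called.

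In *him-8* father germlines H3K27me3 over the 10 genes was 0.52 to 1.06 higher than in M+P+ hermaphrodite germlines, all above 0, but none passed (adjusted p = 0.112 to 0.420), where 5.14% of genes were higher and 8.86% lower. Without H3K27me3 M+P+ replicate 1 there were 3 calls, where 25.1% of all genes were called (13.6% higher), and without *him-8* replicate 1 there were 2, where 21.4% were. Of 69 other meiosis genes 13 were higher and 0 lower. H3K36me3 differences in the same contrast were -0.29 to 0.87 with 0 called, as for 0% of all genes (630 had an unadjusted p under 0.05, and DESeq2 called 9). At *him-8*, the mutant gene in these males, H3K36me3 was 96.4 and 87.4 CPM, against 84.8 and 53.8 in the hermaphrodites. Sex, genotype, background and collection all differ between these groups and cannot be told apart. Depth differed as well: the H3K27me3 libraries held 2797547 and 4606666 counts in fathers and 17181699 and 22378255 in the hermaphrodites.

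Allele-resolved chromatin counts over the members were thin, with 1 to 101 reads per library in H3K27me3 and 10 to 722 in H3K36me3. The change of the allele ratio with history was not called for any of the 4 or 5 members tested in either cross or mark, where 1.29% of genes were called for H3K27me3 in the first cross and 0% in the other 3 comparisons.

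Across groups, the members did not move as one. Over the means of 9 germline groups, without F1 M+P- replicate 3 and male M+P+ replicate 3, the levels of *zim-1* and *zim-3* correlated at r = 0.98 and those of *him-3* and *syp-1* at 0.998, whereas *him-8* and *syp-1* correlated at -0.96 and *him-8* and *him-3* also at -0.96. These values are a description over groups that share sexes and crosses. The 8 genes most like the members' mean profile over all 11 RNA groups, of 9648 compared, were T12C9.7, *pid-5*, *rec-8*, B0238.9, *coh-4*, *set-24*, *coh-3* and *cwf-19L1*, all with r of 0.999 or more. That profile is mostly the step from larvae to germlines, and among the members it was followed most closely by *spo-11* and *htp-3* (r = 0.999 each) and least by *him-8* (r = 0.904). Of the 8, *rec-8*, *coh-3* and *coh-4*, encode the meiotic kleisins, the cohesin subunits on which the axis is built.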

How the data were processed

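Raw counts per gene of 33 RNA and 24 CUT&RUN libraries were used as deposited by the authors. Per the labels, 50 bp reads (75 bp reads trimmed) were mapped to ce10, paired-end for RNA expression and single-end for alleles; the file headers give single-end counts for CUT&RUN. Tools named in the submitters' processing notes, without roles, are HTSeq, DESeq, DESeq2 1.22.2, Bowtie2 2.3.5.1 and TopHat2 2.1.1. Also deposited by the authors are allele counts and CUT&RUN z-scores (a score; how it was computed was not stated), and 3 results that were only quoted. The RPKM values were deposited by the authors as 1 value per group. For 5 comparisons the authors deposited log2 ratios with an adjusted p-value each. Names came from RefSeq WBcel235 (44080 of 45461 RNA genes matched), so no coordinates are given. All sample columns matched a label (0 unused).

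The members and lists were chosen with earlier results of these data known. All genes were fitted with edgeR 4.0.16 (R 4.3.3; TMM, filterByExpr, quasi-likelihood F-test, Benjamini-Hochberg), using only the groups compared. Allele counts were fitted with the library as a block, scaled to its total allele reads, for genes with a mean of at least 10. Scripts were tested on simulated data. Alternatives were DESeq2 1.42.0, its size factors in edgeR, no filter, a replicate block, 20 allele reads, TMM on alleles and leaving out each library; library totals and the M+P- allele fits were added after seeing the data. Replicate numbers were taken to pair the libraries only in F2 against F1 M+P+ RNA (3 pairs, correlations of 0.157 to 0.436), from the data and not the labels. Comparisons with only 2 pairs were not taken as paired, also where these correlated more, as in first-cross H3K27me3 (0.84) and H3K36me3 (0.53). No 2 replicates agreed within sampling noise (chi-square per gene at least 4.22). Other meiosis genes were named when called, up to 6 per comparison by size; likeness was Pearson's r over group means of log2(CPM + 0.5), for genes of at least 5 CPM. Percentages of called genes are over all genes tested.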

Additional observations from a re-analysis of the deposited data

Results flagged for a closer look

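At a pair of genes H3K36me3 in CPM lay on opposite sides in the 2 crosses, with both M+P- libraries above both M+P+ libraries in the first cross and below them in the F1. The difference between crosses was not tested. For *him-8* the first-cross values were 93.9 and 101.3 in M+P- and 84.8 and 53.8 in M+P+, and the F1 values 83.4 and 92.2 against 100.2 and 100.7; the fitted log2 differences were 0.31 and -0.25. For *zim-3* they were 110.2 and 110.4 against 95.1 and 95.9, then 93.3 and 88.0 against 114.7 and 103.8; after scaling the fitted differences were -0.042 and -0.32, both below 0. None of the 4 passed the test. Of the 22 groups of 4 male libraries checked, 1 for each gene (*mes-3* included) and history, 0 had a library far from the rest.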

How the results depend on the processing

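Of 39 counts of members called, 26 stayed within 1.5 times under every alternative run, and no called member changed direction (613 of 669 alternatives kept the call, 56 lost it). The cause of the changes was not tested. With the replicate block, the fathers gave 1 call in place of 0 (*him-5*, adjusted p = 0.0459), H3K36me3 in F2 against F1 M+P+ 3 in place of 0, and *him-8* fathers against males 0 in place of 1; it did not move the other members' counts by over 1.5 times. The numbers did not pair the libraries in these 3 comparisons (lowest correlation 0.027, 0.34 from 2 pairs, and -0.19). Over all genes the block gave 2024 calls for the fathers (22.8%), 1451 for H3K36me3 in the F2 (5.9%) and 2988 for first-cross H3K27me3 (10.3%, 0 members), where 2 pairs correlated at 0.84. With no filter, males against hermaphrodites (M+P+) gave 3 in place of 5, *him-8* fathers against males 0, and H3K27me3 in *him-8* males against hermaphrodites 1 in place of 0. With library totals, *him-8* fathers against males gave 0, and F1 against first-cross M+P+ 4 in place of 0. A minimum of 20 allele reads left 1 call of 2 in M+P+ males and gave 1 of 0 in F1 M+P-; TMM on alleles gave 2 in place of 1 in M+P- hermaphrodites. Leaving out a library gave 1 to 7 and 3 to 8 for the sexes (M+P+, M+P-), 0 to 2 for *him-8* fathers against males, 1 to 4 for H3K27me3 in the F2, 0 to 3 for H3K27me3 in *him-8* males, 0 to 5 for first-cross H3K36me3, 0 to 10 for H3K36me3 in the F2, 1 to 2 for alleles in males and 0 to 1 in the F1.

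Counts over all genes varied more across tools and designs: 721 to 2024 against 739 for the fathers, 534 to 1191 against 819 for hermaphrodites, 11 to 168 against 45 for males, 0 to 124 against 1 for larvae, 0 to 132 against 0 for the F1, 245 to 814 against 266 for the F2, 100 to 1033 against 328 for *him-8* fathers against males, 421 to 1478 against 1023 between crosses, 0 to 2988 against 0 for first-cross H3K27me3, 3220 to 6197 against 4004 for H3K27me3 in *him-8* males, 20 to 1142 against 29 for F1 H3K36me3, 0 to 1451 against 0 for H3K36me3 in the F2, 11249 to 21815 against 12080 for H3K36me3 against H3K27me3 in the F1 and 6676 to 17529 against 7744 in *him-8* males. Leaving out a library gave 0 to 11392 for first-cross H3K36me3, 0 to 5715 for H3K36me3 in the F2, 210 to 706 for the fathers, 0 to 175 for males and 0 to 263 for the F1. With DESeq2 size factors the median gene between germlines and larvae moved from -2.69 to -2.55 (M+P+) and from -2.55 to -2.32 (M+P-), and 10 of 10 members stayed higher. Of the 8 most alike genes, 8 were shared at a minimum of 1 CPM and 7 at log2(CPM + 1). The larval and allele values rest on few reads.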
